A study of Mus musculus with 2 samples.

Results

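The 9 genes described here code for proteins of the cytosol, or working with it, that recognise nucleic acids out of place: Ddx58 (RIG-I), Ifih1 (MDA5), Dhx58 (LGP2), Eif2ak2 (PKR), Zbp1, Tmem173 (STING), Ifi204, Ifi207 and Aim2. They were listed by name, with no threshold on their values, but with earlier results of these data known. They are 9 of the 31053 genes of the deposited count matrix. Their transcripts were followed across the 5328 cells that had 200 or more genes and no more than 20% of UMIs (unique molecular identifiers, each standing for 1 captured transcript) from mitochondrial genes, 1922 cells of library 2 and 3406 cells of library 1. In the matrix they are Ddx58 (ENSMUSG00000040296, chromosome 4), Ifih1 (ENSMUSG00000026896, chromosome 2), Dhx58 (ENSMUSG00000017830, chromosome 11), Eif2ak2 (ENSMUSG00000024079, chromosome 17), Zbp1 (ENSMUSG00000027514, chromosome 2), Tmem173 (ENSMUSG00000024349, chromosome 18), Ifi204 (ENSMUSG00000073489), Ifi207 (ENSMUSG00000073490) and Aim2 (ENSMUSG00000037860), the last 3 on chromosome 1. All 9 had at least 20 UMIs over both libraries, the minimum set for giving a ratio.

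The study sorted cells from the cribriform plate, the perforated bone between nose and brain, taken with olfactory bulb and some nasal mucosa, as podoplanin-positive, CD31-positive, CD45-negative and unstained by a dead-cell dye, and sequenced them as single cells. Mice were 10-week-old wild-type C57BL/6J females, with experimental autoimmune encephalomyelitis (EAE, a mouse model of multiple sclerosis) in the one group and healthy in the other, and the cells of each group form 1 sample pooled from 5 mice. Barcodes of both libraries stand in 1 matrix with the suffix 2 or 1, and no label or file used here ties a suffix to EAE or to healthy mice. The libraries are therefore compared as libraries, with no statement on EAE, no test and no estimate of the spread between animals, and all intervals are 95% exact intervals that cover counting error only.

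Cytosolic sensors bind double-stranded or otherwise unusual RNA, Z-form nucleic acids, or DNA that has left the nucleus or mitochondria. RIG-I and MDA5 signal through the adaptor MAVS, and DNA sensors through STING, to kinases and transcription factors that switch on type I interferon genes, while AIM2 assembles an inflammasome and PKR slows translation. Many sensor genes are themselves induced by interferon, and microglia, the resident macrophages of the brain, are among the cells in which these pathways have been studied.

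The cells of both libraries were mainly of another kind than the label states. Microglia-like cells made up 89.2% of library 2 and 90.6% of library 1. The defining lymphatic marker Prox1 had 6.26 CPM (UMIs per 1000000 UMIs of the same cells) in library 2 and 14.7 CPM in library 1. Pdpn and Pecam1, which code for the proteins the sort selected for, had 0.296 and 6.02 CPM in library 2, against 1.16 and 19.8 CPM in library 1. The microglial genes P2ry12, Tmem119 and Cx3cr1 were at 392, 808 and 1308 CPM in library 2, against 1447, 1216 and 2135 CPM in library 1, and Ptprc, which codes for the CD45 that the sort selected against, was at 234 CPM in library 2 and 299 CPM in library 1. The kept cells held 20282053 UMIs in library 2 and 25766058 UMIs in library 1, and the median cell had 9782.5 UMIs in library 2 and 7334 UMIs in library 1. The libraries also stood apart in other ways: 16 interferon-response genes that include no sensor summed to 3879 CPM in library 2, against 444 CPM in library 1, 21 genes known from tissue dissociation took 2.43% of UMIs in library 2 and 6.51% in library 1, and the median mitochondrial share was 3.74% in library 2 and 1.54% in library 1. Markers of other cell types differed as well. Their summed level was 0.690 CPM for red blood cells in library 2, against 323 CPM in library 1. For nasal epithelium it was 102 CPM in library 2, against 847 CPM in library 1. Bpifa1 made most of the library 1 sum, at 650 CPM, against 1.04 CPM in library 2. Krt8, Krt18 and Cyp2g1 were lower in library 2 by less, and Epcam was nearly level, at 21.1 CPM in library 2 and 22.7 CPM in library 1. For fibroblasts the sum was 222 CPM in library 2, against 21.1 CPM in library 1. Col1a1 and Col1a2 made most of the library 2 sum, at 141 and 69.1 CPM, against 2.25 and 1.98 CPM in library 1. Col3a1 and Dcn were lower in library 2, at 0.345 and 11.0 CPM, against 1.59 and 15.1 CPM in library 1. Lum and Pdgfra were higher in library 2 but had few UMIs. For olfactory sensory neurons the sum was 543 CPM in library 2, against 103 CPM in library 1. The part of these differences in the sensor ratios was not tested. Of the barcode sequences, 8 occurred in both libraries, 7 of them among kept cells. Without them the log2 ratio of Zbp1 was 4.97 in place of 4.96, and the other sensors moved less.

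Promoter windows of 5 of the 9 genes, from 250 bases before to 50 bases after the start of the gene, are printed because most sensors differed between the libraries in the same direction. They are RefSeq sequences of GRCm38.p6, written 5′ to 3′ on the strand of the gene, and Zbp1, Dhx58, Tmem173 and Ifi204 are named only. Capitals mark matches on either strand to GAAANNGAA, a shortened core of the interferon-stimulated response element, or to TTCNNNGAA, the core of the gamma-activated site.
Ddx58 promoter, chr4:40239776-40240075, minus strand: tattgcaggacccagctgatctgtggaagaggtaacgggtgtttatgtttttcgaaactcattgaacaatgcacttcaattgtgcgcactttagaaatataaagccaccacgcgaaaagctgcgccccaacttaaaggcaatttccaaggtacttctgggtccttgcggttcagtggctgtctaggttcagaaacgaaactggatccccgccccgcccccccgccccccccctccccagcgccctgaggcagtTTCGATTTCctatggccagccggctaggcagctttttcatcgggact
Ifih1 promoter, chr2:62646206-62646505, minus strand: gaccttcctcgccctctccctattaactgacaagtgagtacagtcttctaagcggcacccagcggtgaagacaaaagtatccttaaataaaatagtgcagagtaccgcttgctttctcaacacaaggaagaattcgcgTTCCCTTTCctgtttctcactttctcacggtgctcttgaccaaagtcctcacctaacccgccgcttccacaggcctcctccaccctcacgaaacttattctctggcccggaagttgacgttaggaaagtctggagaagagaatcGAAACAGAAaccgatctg
Eif2ak2 promoter, chr17:78882523-78882822, minus strand: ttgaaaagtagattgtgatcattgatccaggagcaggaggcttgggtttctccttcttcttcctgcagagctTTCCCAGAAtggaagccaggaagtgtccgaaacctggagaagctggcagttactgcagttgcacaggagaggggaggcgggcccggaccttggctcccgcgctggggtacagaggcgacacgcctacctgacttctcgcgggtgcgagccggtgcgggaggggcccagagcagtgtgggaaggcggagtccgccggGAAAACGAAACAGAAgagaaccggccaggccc
Ifi207 promoter, chr1:173741760-173742059, minus strand: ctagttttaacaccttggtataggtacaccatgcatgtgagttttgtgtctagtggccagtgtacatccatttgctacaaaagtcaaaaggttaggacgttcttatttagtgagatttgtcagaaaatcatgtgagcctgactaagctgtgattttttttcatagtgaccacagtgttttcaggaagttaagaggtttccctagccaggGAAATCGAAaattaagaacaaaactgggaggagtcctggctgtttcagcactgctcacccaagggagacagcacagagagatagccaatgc
Aim2 promoter, chr1:173420354-173420653, plus strand: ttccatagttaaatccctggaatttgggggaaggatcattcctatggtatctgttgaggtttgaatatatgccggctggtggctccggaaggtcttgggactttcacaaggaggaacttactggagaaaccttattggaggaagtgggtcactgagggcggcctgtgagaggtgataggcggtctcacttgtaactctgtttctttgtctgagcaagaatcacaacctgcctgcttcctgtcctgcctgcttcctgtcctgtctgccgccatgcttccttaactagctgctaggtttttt
A match to GAAANNGAA lay in the windows of Ddx58, Ifih1, Eif2ak2 and Ifi207, and none of either motif lay in the window of Aim2. Ddx58 had 1 match, on the minus strand, starting at position 4 after the start site. Ifih1 had 2, at position -112 on the minus strand and at position 33. Eif2ak2 had 2 overlapping matches at positions 19 and 25, printed as 1 run of capitals, and the 1 match to TTCNNNGAA, at position -178. Ifi207 had 1 match at position -41. Over all 32851 windows of this length in the table, 8.56% held GAAANNGAA and 8.30% held TTCNNNGAA, which reads the same on both strands. A match describes letters and is not a bound site, and a window without one says nothing of the factor.

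Of the 9 sensors, 7 were at least 2-fold higher in library 2 than in library 1 and none was at least 2-fold lower. Over the 13891 genes with at least 20 UMIs, 14.2% were at least 2-fold higher in library 2 and 8.37% at least 2-fold lower. The median log2 ratio was 2.34 over the sensors and 0.04 over all these genes. Since the list was chosen with earlier results of these data known, these contrasts are a description and not independent support. The 7 genes had ratios between 3.30 and 31.0, and Tmem173 and Aim2 were the exceptions.

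**Figure D1:**
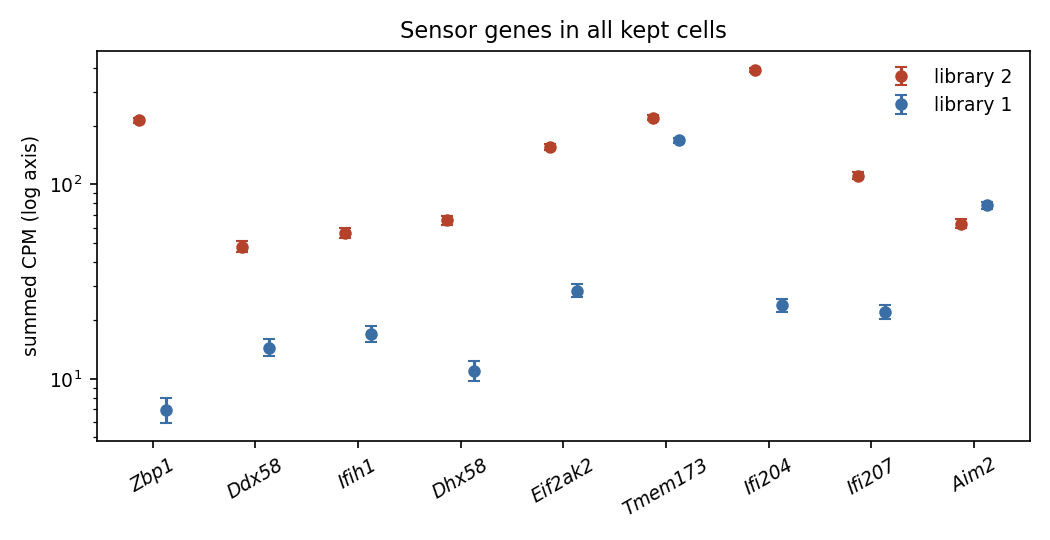
Summed level of each sensor gene in all kept cells, in CPM on a log axis, for library 2 (left point of each pair) and library 1 (right point). Bars are exact Poisson 95% intervals and cover counting error only. Zbp1 (214 CPM in library 2, 6.91 CPM in library 1) and Ifi204 (387 CPM in library 2, 23.9 CPM in library 1) are farthest apart, and Aim2 is the gene that is lower in library 2.

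Among the RNA sensors, Ddx58 codes for RIG-I, a helicase that recognises RNA with triphosphate ends. It had 972 UMIs in library 2 and 373 UMIs in library 1, which are 47.9 CPM (interval 45.0 to 51.0) in library 2 and 14.5 CPM (13.04 to 16.02) in library 1, a ratio of 3.31 (2.93 to 3.74). Ifih1 codes for MDA5, which binds long double-stranded RNA, and had 1139 UMIs in library 2 and 439 UMIs in library 1. Its levels were 56.2 CPM (52.9 to 59.5) in library 2 and 17.04 CPM (15.5 to 18.7) in library 1, a ratio of 3.30 (2.95 to 3.69). The ratios of these helicases differed by less than their counting error.

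Dhx58 codes for LGP2, a relative of RIG-I and MDA5 that lacks their signalling domains and modulates them. It had 1325 UMIs in library 2 and 284 UMIs in library 1, at 65.3 CPM (61.9 to 68.9) in library 2 and 11.0 CPM (9.78 to 12.4) in library 1. Its ratio of 5.93 (5.21 to 6.76) lay above those of Ddx58 and Ifih1 with no overlap of the intervals. Eif2ak2 codes for PKR, the kinase that phosphorylates eIF2α when it meets double-stranded RNA, and had 3158 UMIs in library 2 and 733 UMIs in library 1. It stood at 156 CPM (150 to 161) in library 2 and 28.4 CPM (26.4 to 30.6) in library 1, a ratio of 5.47 (5.05 to 5.94).

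Zbp1, a sensor of Z-form RNA and DNA that can start necroptosis, showed the highest ratio of the 9. It had 4348 UMIs in library 2 and 178 UMIs in library 1. That is 214 CPM (208 to 221) in library 2 and 6.91 CPM (5.93 to 8.001) in library 1, a ratio of 31.0 (26.7 to 36.3), and 90 of the 13891 genes had a higher one. The library 1 level rested in part on cells of high depth, as 48.3% of its Zbp1 UMIs lay in the 171 cells above 12204 UMIs, the 95th percentile of that library, which held 11.5% of all its UMIs. In library 2 the 97 cells above 19165 UMIs held 11.5% of Zbp1 UMIs and 11.5% of all UMIs. Without these cells Zbp1 was at 214 CPM in library 2 and 4.04 CPM (3.25 to 4.95) in library 1, a ratio of 53.1. Cells of very high UMI counts can be doublets, and their part here was not tested.

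On the side of DNA, Tmem173 codes for STING, the adaptor on the endoplasmic reticulum that is switched on by the cyclic dinucleotide made by the DNA sensor cGAS. It had 4477 UMIs in library 2 and 4362 UMIs in library 1, or 221 CPM (214 to 227) in library 2 and 169 CPM (164 to 174) in library 1. The ratio was 1.30 (1.25 to 1.36), above 1 by more than counting error but far from 2. Mb21d1, which codes for cGAS, was at 43.7 CPM in library 2 and 28.8 CPM in library 1, a ratio of 1.52 (1.37 to 1.67). Ranked by ratio, 31.2% of all genes stood above Tmem173.

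Ifi204 and Ifi207 belong to the mouse HIN-200 family, whose proteins bind DNA, and Ifi204 has been placed upstream of STING. Ifi204 had 7847 UMIs in library 2 and 616 UMIs in library 1, at 387 CPM (378 to 396) in library 2 and 23.9 CPM (22.1 to 25.9) in library 1, a ratio of 16.2 (14.9 to 17.6). Ifi207 had 2253 UMIs in library 2 and 566 UMIs in library 1, at 111 CPM (107 to 116) in library 2 and 22.0 CPM (20.2 to 23.9) in library 1, a ratio of 5.06 (4.61 to 5.55). Genes of this family lie together on chromosome 1 and are alike in sequence, so reads may be split or lost between them and the value of any single one is uncertain.

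Aim2, the HIN-200 protein that binds double-stranded DNA and recruits the inflammasome adaptor ASC, was lower in library 2, unlike Ifi204 and Ifi207. It had 1273 UMIs in library 2 and 2016 UMIs in library 1. Its level was 62.8 CPM (59.4 to 66.3) in library 2 and 78.2 CPM (74.9 to 81.7) in library 1, a ratio of 0.802 (0.747 to 0.861), and 72.3% of all genes had a higher ratio. In the GENCODE M21 annotation Aim2 overlaps Cadm3, Dhx58 overlaps Dhx58os and Eif2ak2 overlaps Gm26637, each on the opposite strand. Whether counting used the strand was not found in the labels or headers, so reads of the partners may be included.

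Detection per cell gave the same division of the genes. Depth differed between the libraries, so each cell was thinned to 1000 UMIs, which left out 15 cells of library 2 and 87 cells of library 1. A UMI of Zbp1 was then found in 19.6% of library 2 cells (374 of 1907) and 0.331% of library 1 cells (11 of 3319). For Ifi204 the shares were 29.3% in library 2 and 1.72% in library 1, for Eif2ak2 13.6% in library 2 and 2.71% in library 1, and for Ifi207 9.96% in library 2 and 1.51% in library 1. Dhx58 was found in 6.66% of library 2 cells and 1.21% of library 1 cells, Ifih1 in 4.93% of library 2 and 1.24% of library 1, and Ddx58 in 4.25% of library 2 and 1.45% of library 1. Tmem173 was found in 20.5% (18.7 to 22.3) of library 2 cells and 15.97% (14.7 to 17.3) of library 1 cells, and Aim2 in 6.76% (5.68 to 7.99) of library 2 and 7.41% (6.54 to 8.36) of library 1. The Aim2 shares depended on the depth: at 2000 UMIs they were 11.5% (10.1 to 12.97) in library 2 and 15.3% (14.1 to 16.6) in library 1, and on all UMIs 45.5% in library 2 and 41.7% in library 1, so no order is read from them.

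On all UMIs the shares were higher. Zbp1 was found in 78.7% of library 2 cells and 3.05% of library 1 cells, Ifi204 in 87.6% of library 2 and 9.31% of library 1, Eif2ak2 in 67.7% of library 2 and 15.9% of library 1, and Tmem173 in 80.2% of library 2 and 67.2% of library 1. The 37 sensory neuron-like cells of library 2 were taken for comparison as a class outside the macrophage lineage, and had a median of 11227 UMIs, against 9936.5 UMIs in its microglia-like cells. There, Ifi204, Ifi207, Dhx58 and Aim2 had no UMI, with an upper limit of 7.81 CPM, while Zbp1 and Tmem173 had 1 UMI each and Ifih1 had 2. Ddx58 had 14 UMIs (29.6 CPM, 16.2 to 49.7) and Eif2ak2 had 9 (19.1 CPM, 8.71 to 36.2) in those cells. Microglial markers summed to 38.1 CPM in the sensory neuron-like cells and 9474 CPM in the microglia-like cells of library 2.

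More of the 9 sensors were detected per cell in library 2. At 1000 UMIs, none of the 9 was detected in 31.8% of library 2 cells (29.7 to 34.0) and 70.7% of library 1 cells (69.1 to 72.3). The mean number detected was 1.15 per cell in library 2 and 0.335 per cell in library 1. Such a mean is the sum of the shares of the single genes and does not show that sensors occur together. Exactly 3 sensors were detected in 164 cells of library 2 and 9 cells of library 1. For 5 or more it was 8 cells of library 2 and 0 of 3319 cells of library 1, with an upper limit of 0.111%.

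The UMIs of the 7 higher sensors were spread over more cells in library 2 and gathered in few cells in library 1. The 1% of cells with most Zbp1 UMIs held 5.08% of them in library 2 (20 cells) and 61.2% of them in library 1 (35 cells). For Ifi207 the top 1% held 8.03% in library 2 and 44.7% in library 1, and for Ifi204 5.24% in library 2 and 38.5% in library 1. Dhx58, Ifih1, Ddx58 and Eif2ak2 had between 6.24% and 11.0% in the top cells of library 2 and between 18.01% and 27.8% in those of library 1. Tmem173, at 4.22% in library 2 and 4.84% in library 1, and Aim2, at 6.68% in library 2 and 7.79% in library 1, showed little such difference. Fewer UMIs give higher shares by sparsity alone, which also holds for library 1 beside library 2, so these shares are a description. Of the 35 top Zbp1 cells of library 1, 27 were microglia-like and 18 were above the 95th percentile of UMIs, and of the 20 in library 2, 18 were microglia-like and 11 were above it.

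Pairs of sensors were looked for in the same cell after thinning to 4000 UMIs, which kept 1835 cells of library 2 and 3138 cells of library 1. The number of cells with both genes was set against the product of their shares, so a value of 1 means no tendency to occur together. The value cannot exceed 1 over the larger share. Genes found in many cells of library 2 therefore have less room above 1 than the rarer ones of library 1. No difference in coupling between the libraries is read from these values. Among the 21 pairs of the 7 higher sensors, the observed number exceeded the product in all 21 in library 2, with a median of 1.13 times (1.03 to 1.32), and in 20 in library 1, with a median of 1.80 times (0.904 to 8.05). Zbp1 and Ifi207 occurred together in 20 cells of library 1, against 2.49 from the product, Zbp1 and Ifi204 in 21 against 3.099, and Ifi204 and Ifi207 in 54 against 8.94.

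In library 2 the same pairs stood at 342 cells against 310 from the product for Zbp1 and Ifi207, 739 against 688 for Zbp1 and Ifi204, and 470 against 426 for Ifi204 and Ifi207. The 15 pairs that include Tmem173 or Aim2 had medians of 1.04 in library 2, with 12 above 1, and 0.915 in library 1, with 6 above 1. Among microglia-like cells alone, the medians of the 21 pairs were 1.11 in library 2 and 1.82 in library 1. Without the cells above the 95th percentile of UMIs they were 1.14 in library 2 and 1.86 in library 1.

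**Figure D2:**
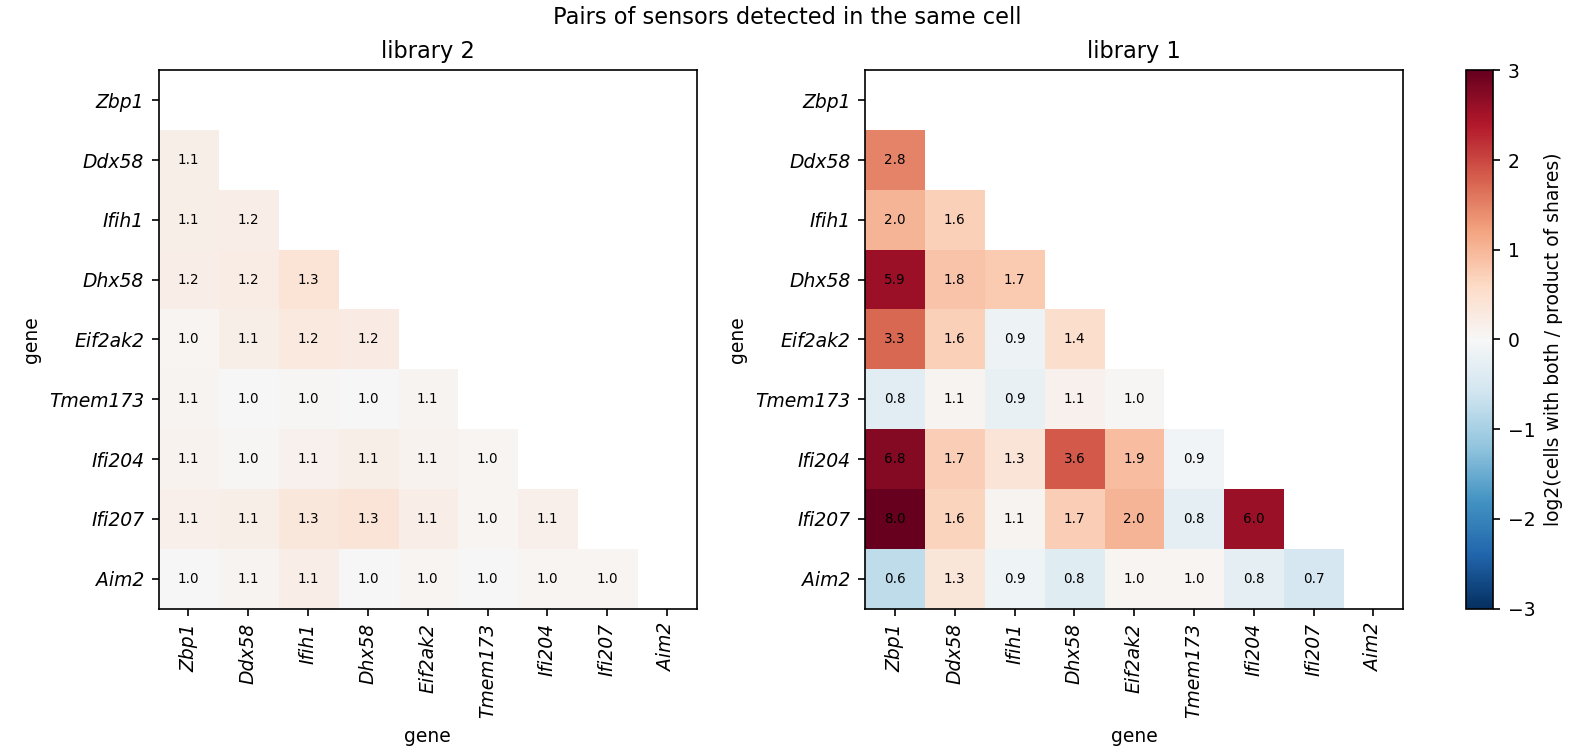
Pairs of sensors detected in the same cell at 4000 UMIs, library 2 on the left and library 1 on the right. Each square gives the number of cells with both genes over the product of their shares, and its colour the log2 of that value. Values in library 2 stay between 0.989 and 1.32, while in library 1 Zbp1 with Ifi207 reaches 8.05 and Zbp1 with Aim2 is at 0.586. Genes found in many cells cannot reach high values, so the libraries are not compared by them.

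Over all cells, the 7 sensors were at higher levels in cells with more interferon-response transcripts in both libraries. Cells were sorted into ranges by the UMIs of the 16 interferon-response genes, none a sensor, among 1000 UMIs. The ranges are ranges of a score and not cell types. In library 2 they held 148 cells at 0, 585 at 1 to 2, 1079 at 3 to 9 and 95 at 10 or more, and in library 1 they held 2528, 686, 101 and 4 cells, in that order. The limits cut through dense parts of the score, as 306 cells of library 2 had exactly 2 and 342 had exactly 3, against 118 and 49 cells of library 1.

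For Zbp1 the levels ran as follows. From the lowest range to the highest it was at 113, 165, 237 and 397 CPM in library 2, against 2.29, 7.89, 82.6 and 262 CPM in library 1, where the last value rests on 4 cells and 9 UMIs. Ifi204 was at 198, 307, 428 and 681 CPM in library 2, against 9.88, 38.5, 182 and 992 CPM in library 1. The cells of library 1 that had no interferon-response UMI thus had little of either gene, and those of library 2 had more than the cells of library 1 with 1 to 2 such UMIs.

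Ifi207 was at 54.1, 77.5, 127 and 213 CPM in library 2, against 10.9, 33.2, 144 and 904 CPM in library 1 over the same ranges. In library 1 the RNA sensors spanned a narrower range over the first 3 ranges of the score. Ifih1 was at 33.3, 43.9, 59.5 and 125 CPM in library 2, against 14.1, 18.4, 49.4 and 525 CPM in library 1, and Ddx58 at 33.3, 35.4, 51.7 and 100.1 CPM in library 2, against 13.3, 15.97, 23.2 and 204 CPM in library 1. Dhx58 was at 32.1, 46.2, 73.8 and 132 CPM in library 2, against 8.21, 13.8, 38.3 and 350.0 CPM in library 1, and Eif2ak2 at 118, 125, 170 and 232 CPM in library 2, against 23.8, 34.1, 69.5 and 554 CPM in library 1.

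Tmem173 and Aim2 showed no such order in library 1. Tmem173 was at 157, 220, 228 and 238 CPM in library 2, against 173, 165, 135 and 117 CPM in library 1. Aim2 was at 44.0, 64.4, 63.7 and 71.8 CPM in library 2, against 81.3, 68.5, 74.6 and 146 CPM in library 1, the last from 5 UMIs. All 37 sensory neuron-like cells of library 2 scored under 3. Among microglia-like cells of library 2 alone, Tmem173 was at 218, 229 and 231 CPM and Aim2 at 60.5, 67.2 and 65.1 CPM over the first 3 ranges, while Zbp1 was at 158, 170 and 236 CPM. The other 6 sensors were also highest at 3 to 9 in those cells, but did not all climb before it. Eif2ak2 was at 156 (134 to 181), 130 (121 to 140) and 173 CPM there, lower at 1 to 2 than at 0 with intervals that overlap, and Ddx58, Ifih1, Dhx58 and Ifi207 differed by less than counting error between 0 and 1 to 2. Ifi204 was at 282, 317 and 436 CPM in the same cells.

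**Figure D3:**
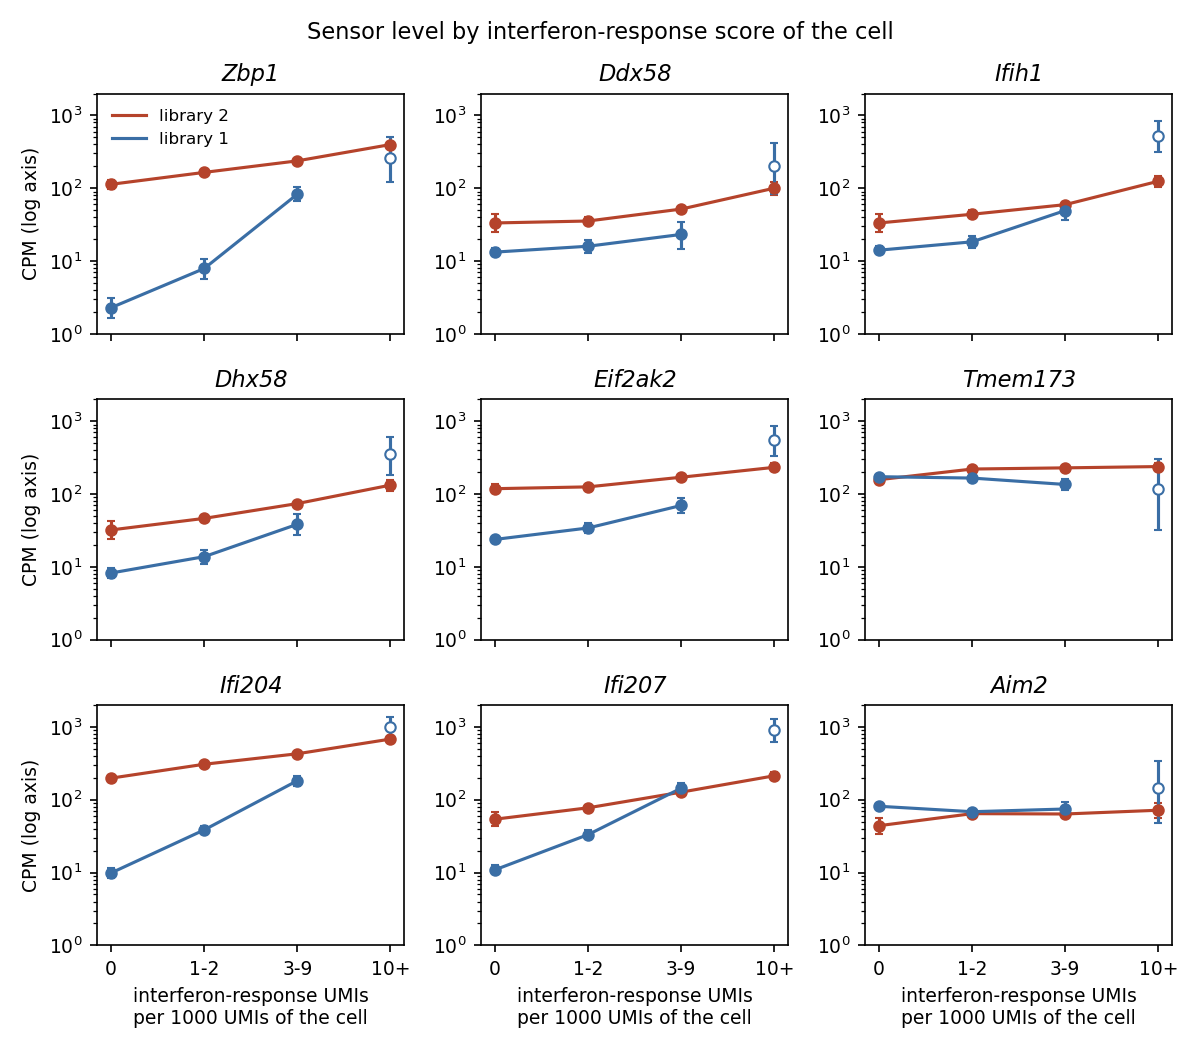
Level of each sensor in CPM (log axis, intervals as bars) by the number of interferon-response UMIs per 1000 UMIs of the cell, for library 2 and library 1. Open points rest on 4 cells of library 1. The lines of library 2 and library 1 meet or cross for Ifi207 at 3 to 9 UMIs (127 CPM in library 2, 144 CPM in library 1), while Zbp1 stays apart (237 CPM in library 2, 82.6 CPM in library 1).

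In cells with a score of 3 to 9 UMIs, each of the 7 sensors had a smaller ratio than over all cells. In the range of 3 to 9 UMIs, where mean scores were 4.80 in library 2 and 4.24 in library 1, the ratio was 2.87 (2.31 to 3.62) for Zbp1, 2.35 (2.02 to 2.74) for Ifi204, 2.44 (1.92 to 3.15) for Eif2ak2, 2.23 (1.47 to 3.55) for Ddx58 and 1.93 (1.39 to 2.74) for Dhx58. Ifih1, at 1.20 (0.901 to 1.64), and Ifi207, at 0.882 (0.743 to 1.05), were not separated beyond counting error. At a score of 0 the ratio was 49.5 for Zbp1, 20.1 for Ifi204, 4.98 for Eif2ak2, 4.95 for Ifi207, 3.90 for Dhx58, 2.51 for Ddx58 and 2.37 for Ifih1. Tmem173 had a ratio of 0.910 at a score of 0 and 1.69 at 3 to 9, and Aim2 had one of 0.541 at a score of 0 and 0.854 at 3 to 9. Of the 105 cells of library 1 that scored 3 or more, 77 were microglia-like, 10 border macrophage-like and 10 of a mixed cluster, and of the 1174 such cells of library 2, 1063 were microglia-like.

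The ratios at a score of 0 moved with the depth at which the score was taken and with the kinds of cell in the range. Of the 148 cells of library 2 that scored 0 at 1000 UMIs, 110 were microglia-like and 29 sensory neuron-like, whereas at 2000 UMIs only 47 cells scored 0, of which 20 were microglia-like and 22 sensory neuron-like. At 2000 UMIs the ratio at 0 was 33.6 (17.7 to 64.95) for Zbp1, 10.99 (7.80 to 15.3) for Ifi204, 2.64 for Ifi207, 2.62 for Eif2ak2, 1.95 for Ddx58, 1.503 (0.592 to 3.19) for Dhx58, 1.21 (0.572 to 2.27) for Ifih1, 0.381 for Tmem173 and 0.147 for Aim2. At 3 to 9 UMIs it was 4.39 for Zbp1 there, and 1.45 (1.12 to 1.90) for Ifih1, which was beyond counting error, unlike with scores at 1000 UMIs.

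Among microglia-like cells alone with a score of 0 at 1000 UMIs, Zbp1 was at 158 CPM in library 2 and 2.03 CPM in library 1, a ratio of 77.7 (54.3 to 114), and Ifi204 had a ratio of 30.9 (25.5 to 37.5). The ratio of Tmem173 in these cells was 1.24 (1.08 to 1.41), on the other side of 1 from that over all cells of this score, and the ratio of Aim2 was 0.722 (0.556 to 0.922). At 2000 UMIs the ratios in such cells were 96.03 (50.03 to 186) for Zbp1, 31.6 (22.0 to 44.7) for Ifi204, 1.05 (0.727 to 1.47) for Tmem173 and 0.381 (0.140 to 0.832) for Aim2, from 20 cells of library 2 and 1891 of library 1. In microglia-like cells at 3 to 9 UMIs, Ifi207 had a ratio of 0.908 (0.746 to 1.11) with scores at 1000 UMIs and 1.47 (1.20 to 1.82) with scores at 2000 UMIs.

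Within microglia-like cells, 1714 of library 2 and 3085 of library 1, the sensors again gave 7 of 9 at least 2-fold higher in library 2, against 10.4% of 12353 genes. The choice of the list limits this contrast in the same way as over all cells. Zbp1 was at 219 CPM in library 2 and 6.10 CPM in library 1, a ratio of 35.9 (30.4 to 42.6), and Ifi204 at 406 CPM in library 2 and 21.4 CPM in library 1, a ratio of 19.0 (17.4 to 20.8). The ratio of Ifi207 was 7.34 (6.58 to 8.21), above its 5.06 over all cells. Tmem173 was at 231 CPM in library 2 and 174 CPM in library 1, and Aim2 at 66.0 CPM in library 2 and 81.1 CPM in library 1. Their ratios were 1.32 and 0.814. Cluster 17, led by Mki67 and other genes of dividing cells, belongs to this class, and without it 7 of the 9 were again at least 2-fold higher, with a ratio of 41.4 (34.6 to 50.1) for Zbp1 and 19.9 (18.1 to 21.9) for Ifi204. Different clusters held this class in each library, clusters 14 to 17 in library 2 and mainly clusters 1 to 6 in library 1, although all pathway genes had been left out of the clustering. Microglial markers summed to 9474 CPM in these cells of library 2 and 16899 CPM in those of library 1.

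Border macrophage-like cells, 54 cells of library 1 that were marked by Pf4, Ms4a7 and Mrc1, had another profile for some of the sensors. Ifi207 was at 307 CPM (260 to 360) in them and 15.96 CPM (14.4 to 17.6) in microglia-like cells of the same library, and Ifi204 was at 130 CPM (100.1 to 166) in them, against 21.4 CPM (19.6 to 23.3) in those microglia-like cells. Zbp1 stood at 24.4 CPM (12.6 to 42.6) from 12 UMIs in border macrophage-like cells, against 6.10 CPM (5.15 to 7.17) in microglia-like cells. Tmem173 was at 128 CPM (98.3 to 164) in border macrophage-like cells and 174 CPM (169 to 180) in microglia-like cells, and Aim2 was at 50.8 CPM (32.8 to 74.9) in border macrophage-like cells, against 81.1 CPM (77.5 to 84.7) in microglia-like cells. Interferon-response genes came to 1267 CPM in the border macrophage-like cells and 411 CPM in the microglia-like cells of library 1. Ifi207 had 151 of its 566 UMIs in library 1 in these 54 cells.

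Olfactory ensheathing-like cells, glia of the olfactory nerve, showed the same direction. In 58 of them Zbp1 was at 221 CPM (182 to 266) in library 2, against 8.75 CPM from 2 UMIs in the 37 such cells of library 1. Ifi204 was at 239 CPM (199 to 286) in these cells of library 2 and 13.1 CPM from 3 UMIs in those of library 1. Microglial markers came to 6582 CPM in the ensheathing-like cells of library 2 and 11242 CPM in those of library 1, and the part of microglial RNA in these levels was not tested. Nasal epithelium-like cells, 136 in library 1 and shallow at a median of 1748.5 UMIs, also carried 8461 CPM of microglial markers.

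**Figure D4:**
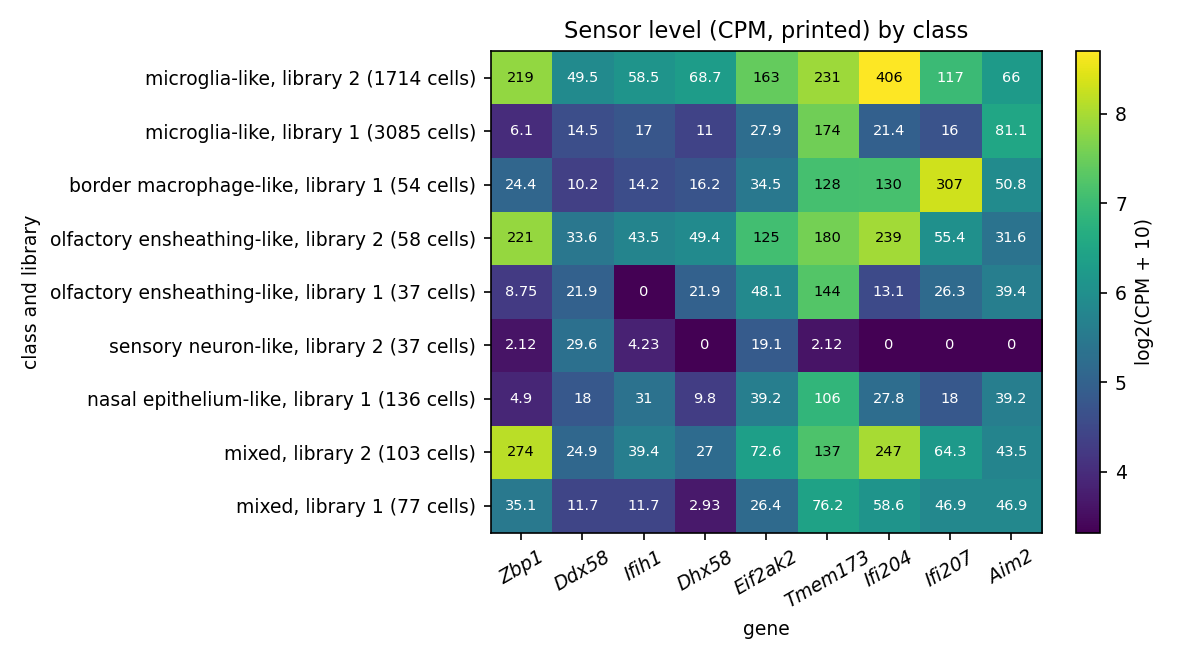
Level of each sensor, printed in CPM and coloured by log2(CPM + 10), in the named classes with at least 20 cells of a library, library 2 above library 1. Sensory neuron-like cells of library 2 are near 0 for 7 of the 9 genes, and border macrophage-like cells of library 1 reach 307 CPM of Ifi207.

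For Zbp1 and Ifi204 the clusters of library 2 with at least 50 cells differed far less than the libraries did. The sensory neuron-like cluster 13 of library 2, with 37 cells, fell under this limit. It had 2.12 CPM of Zbp1 and no UMI of Ifi204. Over the 6 clusters of library 2 with at least 50 cells, Zbp1 ran from 186 CPM in cluster 16 to 274 CPM in cluster 17, a ratio of 1.47. Leading genes of cluster 16 include H2-Eb1 and Cd74, and those of cluster 17 include Mki67 and Top2a. The mixed cluster 10 was level with cluster 17 for Zbp1, at 274 CPM (229 to 325). Ifi204 ran from 239 to 431 CPM, a ratio of 1.80, and Ifi207 from 55.4 to 137 CPM, a ratio of 2.47. The highest cluster stood 2.88 times above the lowest for Dhx58, 2.55 times for Eif2ak2, 2.28 times for Ddx58 and 1.67 times for Ifih1. For Tmem173, at 1.99 times, and Aim2, at 2.13 times, these clusters differed by more than the libraries. The lowest cluster was the mixed cluster 10 for Dhx58, Eif2ak2, Ddx58, Ifih1 and Tmem173. It was the olfactory ensheathing-like cluster 12 for Ifi204, Ifi207 and Aim2, the last from 16 UMIs. In the microglia-like clusters 14 to 17 of library 2, Aim2 ran only from 64.5 to 67.3 CPM, less than the libraries differed. Tmem173 ran from 209 to 272 CPM in those clusters. Over 9 clusters of library 1, Ifi207 was lowest in cluster 6, at 1.63 CPM (0.597 to 3.54) from 6 UMIs. It was highest in cluster 11, the border macrophage-like one, at 307 CPM. The ratio of 189 between them is uncertain, since its low end rests on those 6 UMIs. Zbp1 ran from 2.17 CPM in cluster 6 (8 UMIs) to 35.1 CPM in cluster 10 (12 UMIs). The 23 cells of library 1 in the dividing cluster 17 had 66.8 CPM of Zbp1 (43.2 to 98.6) and 90.9 CPM of Ifi204 (62.9 to 127), with interferon-response genes at 2333 CPM.

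The genes most like each sensor across 15 cluster and library pairs of at least 50 cells were named by Pearson correlation of log2(CPM + 10), as a description, since pairs share a library and its overall differences. For Zbp1 they were H2-T22 (0.99), C4b (0.99) and Gbp3 (0.99), for Ifih1 Mx1 (0.98), Oas1g (0.97) and Tor3a (0.97), for Dhx58 Cd274 (0.98), Gbp8 (0.98) and Tapbpl (0.97), and for Eif2ak2 Adora1 (0.99), Gpr35 (0.99) and Cd300lf (0.98). Ddx58 was closest to St8sia1 (0.97) and Trim30a (0.97), Ifi204 to Fgl2 (0.99), Ifi206 (0.98) and Axl (0.98), and Ifi207 to Cybb (0.93), Mmp14 (0.92) and Axl (0.92). Tmem173 was closest to Ncf1 (0.94), Tlr7 (0.93) and Naip2 (0.93), and Aim2 to Bsdc1 (0.91), Bco2 (0.89) and Sesn2 (0.88). The order of near-equal correlations carries no information. Over the 6 clusters of library 2 alone, the closest genes of each sensor were all other ones. Between sensors, the correlation of Zbp1 with Ifi204 was -0.07 there, against 0.96 over both libraries. That of Ddx58 with Eif2ak2 was 0.94, against 0.96 over both.

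The rest of the pathway differed about as much as genes in general. Of 76 genes measured in 7 other lists, 16 (21.1%) were at least 2-fold higher in library 2, against 14.2% of all genes, and 3 (3.95%) at least 2-fold lower, against 8.37% of all genes, and 75.0% lay between these limits, against 77.4% of all genes. Their median log2 ratio was 0.16. Of the 16 higher genes, 7 were further HIN-200 genes of 9 measured, with a median log2 ratio of 4.55. Ifi211 was at 71.3 CPM in library 2 and 1.67 CPM in library 1, a ratio of 42.8 (31.6 to 59.3). Ifi213 and Ifi206 were at 51.9 and 56.6 CPM in library 2, against 1.71 and 2.41 CPM in library 1. Their ratios were 30.4 and 23.5, under the same caution on similar sequences. Ifi209 had a ratio of 14.3 (12.1 to 17.1), Ifi205 one of 35.6 (16.004 to 98.3) and Ifi214 one of 31.1 (13.96 to 86.2), the last pair from 6 UMIs each in library 1. The family did not move as one, since Ifi203, with 20 UMIs in library 2 and 45 UMIs in library 1, had a ratio of 0.565 (0.316 to 0.976), and Mndal one of 1.61 (1.001 to 2.598). Ifi203 and Mndal were named after their values were seen.

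Among 14 adaptors, kinases and transcription factors, 3 were at least 2-fold higher in library 2. Irf7, the factor that amplifies interferon transcription, was at 176 CPM (171 to 182) in library 2 and 10.1 CPM (8.87 to 11.4) in library 1, a ratio of 17.5 (15.5 to 19.97). Ikbke, a kinase that activates IRF3 and IRF7, was at 19.5 CPM in library 2 and 3.22 CPM in library 1, a ratio of 6.06. Trim25, a ubiquitin ligase of the RIG-I pathway, was at 33.9 CPM in library 2 and 15.3 CPM in library 1, a ratio of 2.22. The other members named by the same rule were not past 2-fold: Irf5 had a ratio of 0.670, Tank 0.991, Azi2 0.909 and Traf6 0.653. Mavs, Tbk1 and Irf3, named for their place in the pathway after their values were seen, had ratios of 1.14, 1.11 and 1.03.

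In the 18 other sensors and cofactors, Ddx60 and Trim56 were at least 2-fold higher, at 27.8 and 25.3 CPM in library 2, against 7.18 and 11.1 CPM in library 1. Ddx3x was lower, at 183 CPM in library 2 and 368 CPM in library 1, a ratio of 0.496 that lay just past the limit. Zc3hav1 had a ratio of 1.60, Ddx21 0.632, Dhx9 1.12 and Lrrfip1 1.12. Of 9 measured genes that remove or edit nucleic acids, Samhd1, which degrades nucleotides, was at 238 CPM in library 2 and 50.8 CPM in library 1, a ratio of 4.68 (4.41 to 4.98), and Adar, which edits double-stranded RNA, had a ratio of 2.93 (2.59 to 3.33). Rnaseh2b, Rnaseh2c, Dnase2a, Skiv2l and Dicer1 had ratios of 1.74, 0.851, 1.07, 1.32 and 1.27. Trex1, the DNA exonuclease, had no UMI in either library, and since it overlaps Atrip on the same strand in GENCODE M21, its reads may not have been counted.

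Among 14 effectors, Mlkl, which carries out necroptosis downstream of ZBP1, was at 7.05 CPM (143 UMIs) in library 2 and 0.349 CPM (9 UMIs) in library 1, a ratio of 20.2 (10.3 to 45.0). Ripk3, its activating kinase, had a ratio of 1.05 (0.849 to 1.30), and Pycard, which codes for ASC, a ratio of 1.998 (1.94 to 2.06) that lay just under the limit. Ddit3, a target of the eIF2α pathway, was lower, at 102 CPM in library 2 and 246 CPM in library 1, and Ppp1r15a and Atf4 had ratios of 0.547 and 0.667. The other eIF2α kinases Eif2ak1, Eif2ak3 and Eif2ak4 had ratios of 0.957, 0.634 and 0.941, so Eif2ak2 was alone in its family past 2-fold. Of the dissociation genes, 15 of 21 were at least 2-fold lower in library 2, and their part in these ratios was not tested.

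Of 9 measured negative regulators, Nlrx1 was at least 2-fold higher, with a ratio of 2.38, and Tnfaip3, which codes for A20, was lower, at 180 CPM in library 2 and 582 CPM in library 1, a ratio of 0.310. Tax1bp1 had a ratio of 0.585, Atg5 0.795, Cyld 1.33 and Pcbp2 1.22. Type I interferon transcripts, the products of these pathways, came from few cells. Ifnb1 had 8 UMIs in 5 of 1922 cells of library 2 and 57 UMIs in 21 of 3406 cells of library 1, where 1 cell held 11 of them. It was at 0.394 CPM (0.170 to 0.777) in library 2 and 2.21 CPM (1.68 to 2.87) in library 1, a ratio of 0.178 (0.0735 to 0.376), which is lower in library 2 and opposite to the 7 sensors. No alpha interferon gene had more than 1 UMI.

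**Figure D5:**
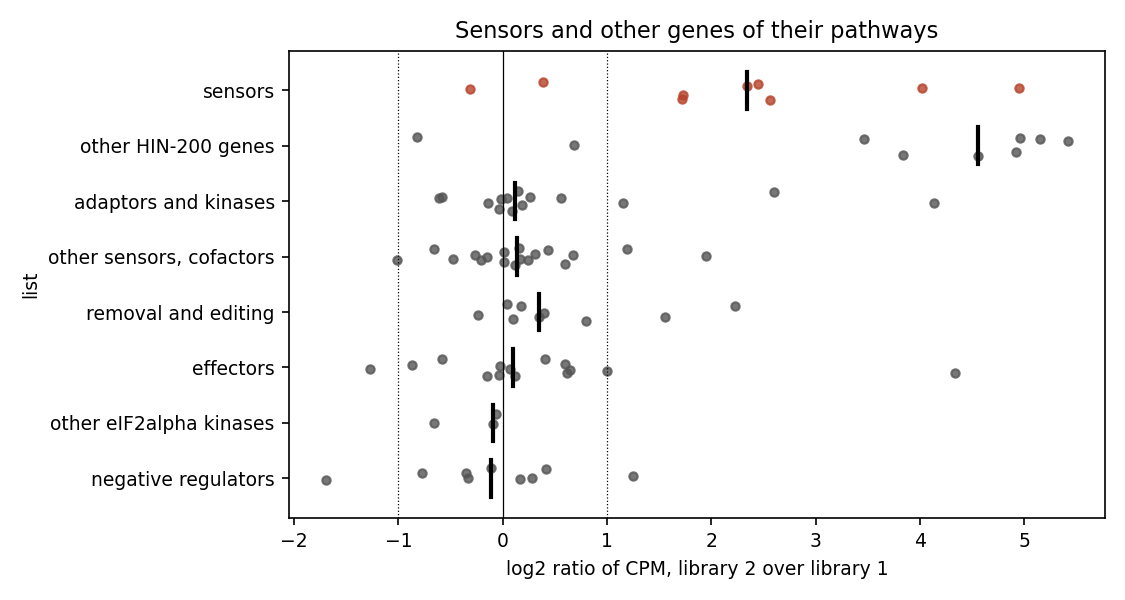
Log2 ratio of CPM, library 2 over library 1, for the sensors and 7 other lists of their pathways, 1 point per gene with at least 20 UMIs, black bars for medians and dotted lines at 2-fold. The sensors and other HIN-200 genes have medians of 2.34 and 4.55, while the other lists have medians between -0.11 and 0.35.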

How the data were processed

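Unnormalised UMI counts by gene and barcode were deposited by the authors as 1 matrix, written by Cell Ranger 3.1.0 per the file headers; bcl2fastq and UMI-tools are named per the submitters' processing notes. The genome build, the annotation and any equalising of depth between libraries are not stated in the labels or headers. Counts were summed per library and divided by library or class totals to give CPM, with exact Poisson, conditional binomial (ratios) and Clopper-Pearson (shares) 95% intervals in Python 3.11.15, NumPy 2.4.6, SciPy 1.17.1 and pandas 2.3.3. The cell filter removed 512 library 2 barcodes and 432 library 1 barcodes. PCR and cell sampling are not covered by the intervals. No doublet caller was run; an alternative left out cells above the 95th percentile of UMIs.

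Clusters were made with Scanpy 1.11.5 and igraph 0.11.9 (2000 variable genes without any pathway gene, 30 principal components, 15 neighbours, Leiden resolution 1). A cluster took the name of the marker list with at least 3 genes among its 50 highest folds (the list of dividing cells was not used for naming). It was mixed when lists of more than 1 type qualified. Otherwise it was microglia-like when 5 of 7 microglia markers reached 100 CPM and no other list had more genes among its 10 highest folds. A cluster under 0.333 of the library depth with no gene of its list among those 10 stayed unnamed. Of the microglia-like clusters, only cluster 2 was named by its 50 highest folds. Clusters 7, 10, 11 and 12, with other names, also had 6 of the 7 markers at 100 CPM, so this limit alone does not separate them. EAE and healthy mice, 1 pool each, were not compared because suffixes are not tied to groups, and no test was made. Sums, ratios and intervals were tested on simulated Poisson counts, and thinning on deposited cells of library 1. Poisson counts are the model behind the intervals, so that test does not cover variation between cells beyond counting error.

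Members and gene lists were chosen with earlier results of these data known. Named genes were all 9 members, the 4 highest and the 4 most different genes of each other list, the 3 most alike genes per member (1 of them is not reported here), and set markers; Ifi203, Mndal, Mb21d1, Mavs, Tbk1, Irf3, Ripk3 and Trex1 were chosen after their values were seen.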

Additional observations from a re-analysis of the deposited data

How the results depend on the processing

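The count of 7 sensors at least 2-fold higher in library 2 was the same under every alternative run, in all kept cells and in microglia-like cells, and all 81 recomputed log2 ratios of the sensors kept their sign. With 10 CPM added to both libraries, 9 other pathway genes were at least 2-fold higher in library 2, against 16 with none added, and the log2 ratio of Zbp1 was 3.73 and that of Ifi204 3.55. Totals without mitochondrial, ribosomal protein and haemoglobin genes shifted the median log2 ratio of all genes to 0.16, against 0.04, and turned the sign of the medians of negative regulators (0.01) and other eIF2α kinases (0.04). In the cells with least dissociation signal per library, the log2 ratio of Zbp1 was 4.53 and that of Ifih1 1.46. With scores taken at 2000 UMIs, the ratios at 3 to 9 interferon-response UMIs were 3.34 for Ifi204, 1.10 (0.932 to 1.30) for Ifi207 and 1.45 (1.12 to 1.90) for Ifih1. The cause was not tested. The pair depth of 4000 UMIs and the values without shared barcodes, without the dividing cluster and by score in microglia-like cells were chosen after seeing the data. No paired analysis was possible because each group has 1 sample and no test was made. With 1 pool per library, the spread between animals is unknown, and sensors with few UMIs per class cannot be ordered at this depth.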
